A study of Mus musculus with 9 samples.

Results

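Transcripts of 10 genes that carry out the release of cytotoxic granules, or that protect the cell holding them, were measured in cultured mouse cytotoxic T lymphocytes (CTL) exposed to inhibitors of the kinase mTOR. The genes were Rab27a, Unc13d, Stx11, Stxbp2, Srgn, Lyst, Vamp7, Vamp8, Serpinb9 and Serpinb6b, and every probe set whose array annotation gave one of these symbols was taken. This gave 20 of the 45037 probe sets other than controls, for 10 of 18193 annotated genes. The cells came from wild-type mice with the P14 transgene, a T cell receptor for a lymphocytic choriomeningitis virus peptide; the age and sex of the mice are not given in the sources used here. This peptide, interleukin 2 and interleukin 12 activated the spleen cells for 48 h, and growth over 96 h more made every culture 6 days old. Over the last 48 h the groups differed in what was added: only the solvent (DMSO), 20 nM rapamycin, which inhibits mTOR complex 1 directly, or 1 uM KU-0063794, an inhibitor of the mTOR kinase itself. Each group held 3 cultures on 1 Affymetrix array each, and the cultures numbered 1, 2 and 3 in every group were grown from the same 3 spleens.

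Values are log2 signals per probe set. A signal above 1.47 log2, the 95th percentile of 40 genes that belong to other tissues, is called above the background level, and between 29.1% and 29.6% of probe sets lay above it on each array. All 9 measured markers of CD8 T cells lay above it in every group, and their summed linear signal ranged from 1630 to 1765 under DMSO, from 1763 to 1934 under rapamycin and from 1893 to 1949 under KU-0063794. Among genes of other lineages, each group had 1 of 8 B cell markers above it (Cd79b), 1 of 13 myeloid markers (Csf1r), 1 of 5 CD4 T cell markers (Zbtb7b) and 1 of 3 NK cell markers (Eomes, which CD8 T cells also use). None of 7 markers of mast cells and basophils and none of 5 of platelets, cells that also carry secretory granules, lay above it. The myeloid list summed to between 18.6 and 19.7 under DMSO, 17.4 and 18.7 under rapamycin, and 18.1 and 19.99 under KU-0063794. RNA integrity, read from how far the 3' end of actin outshines its 5' end, gave 0.49 to 0.65 log2 under DMSO against 0.62 to 0.72 under rapamycin and 0.65 to 0.70 under KU-0063794. These ranges overlapped between groups, because the highest DMSO array lay above the lowest array of each inhibitor. The same measure on Gapdh overlapped too, at -0.21 to 0.04, -0.25 to -0.03 and -0.22 to -0.03 log2, and the part of RNA integrity in the results was not tested.

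A CTL kills by moving lysosome-like granules to the contact with its target and fusing them with the plasma membrane, which sets perforin and granzymes free. Rab27a and its effector Munc13-4 (Unc13d) bring granules to the membrane, and syntaxin 11 (Stx11), its partner Munc18-2 (Stxbp2) and vesicle SNARE proteins such as Vamp7 and Vamp8 serve fusion. Lyst governs the size of lysosome-related organelles, serglycin (Srgn) is the proteoglycan on which granule proteins are stored, and inherited loss of several of these proteins causes haemophagocytic disease. Serpinb9 is an inhibitor of granzyme B that guards CTL against their own cargo, and Serpinb6b belongs to the same clade B of intracellular serpins.

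The 2 protector genes had the largest mean changes of the 10, and both were lower within each spleen. With the spleen as a fixed block, Serpinb9 and Serpinb6b fell with both inhibitors, by about 1 log2 unit with rapamycin and 1.4 with KU-0063794, whereas no gene for docking, fusion, storage or granule size passed at the level of genes; fusion genes passed under some other settings, given with them. With the spleen as a random block, whose correlation is estimated over all genes, neither protector gene passed: the limma adjusted p was 0.221 (rapamycin) and 0.0838 (KU-0063794) for Serpinb9, and 0.366 and 0.217 for Serpinb6b. Without the block none of the 10 genes passed at an adjusted p under 0.05 in limma in either comparison, against 4.44% of the 13278 genes tested (rapamycin) and 4.07% (KU-0063794). At an unadjusted p under 0.05, 1 of 10 passed in each comparison, against 17.9% and 18.5% of genes, and with the block 4 and 6 of 10, against 25.6% and 26.4%. With the block 2 of 10 were called lower in each, against 5.52% and 5.86% of all genes tested called lower, and 11.8% and 12.4% called in either direction. Beside a limma p-value the text gives the value without a block first. P-values without a block set a change against the spread between cultures of separate spleens. Those with the fixed block leave that spread out, and rest on how far within-spleen differences vary from spleen to spleen. Lower in all 3 spleens were 5 of 10 genes with rapamycin and 4 with KU-0063794, as were 21.4% and 19.3% of all genes tested. The 10 genes had a median log2 fold change of -0.12 with rapamycin and -0.25 with KU-0063794, where the medians of all genes tested were -0.0043 and 0.011.

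**Figure D1:**
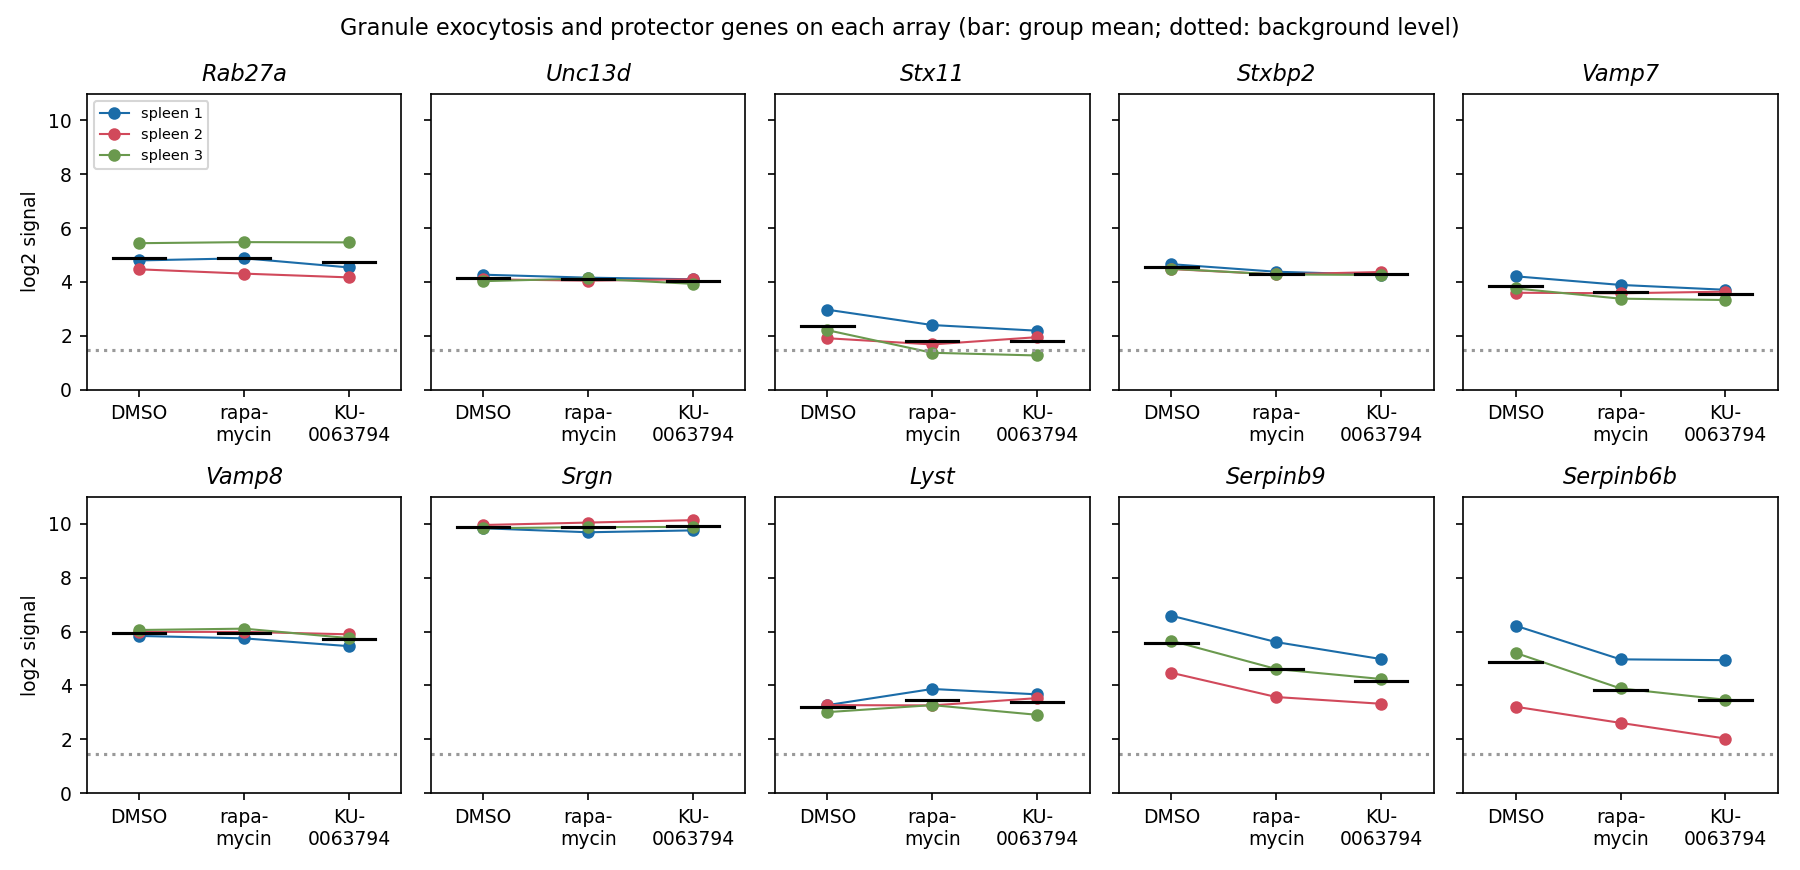
Log2 signal (vertical axis) of the 10 genes in DMSO, rapamycin and KU-0063794 cultures, with 1 point per array, lines joining cultures of 1 spleen and black bars for group means. Serpinb9 and Serpinb6b run downward in parallel in all 3 spleens from widely spaced starting values, and Srgn stays near 10 log2.

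Serpinb9 read 6.59, 4.47 and 5.66 log2 in the DMSO cultures of spleens 1, 2 and 3. It read 5.61, 3.57 and 4.61 log2 with rapamycin, and 4.98, 3.32 and 4.24 log2 with KU-0063794. The groups overlapped, because spleen 2 without inhibitor was lower than spleen 1 with either one, yet within every spleen the order was DMSO, rapamycin, KU-0063794 from high to low. The differences from DMSO in spleens 1, 2 and 3 were -0.99, -0.90 and -1.06 log2 with rapamycin and -1.62, -1.15 and -1.42 log2 with KU-0063794. The mean therefore moved from 5.58 ± 1.06 log2 (SD, n = 3) to 4.60 ± 1.02 and 4.18 ± 0.83 log2. For rapamycin the log2 fold change was -0.98 (SE 0.64, adjusted p = 0.483 in limma; with the spleen as a block SE 0.097, adjusted p = 0.00217, 95% interval -1.21 to -0.76), a 1.97-fold lower signal. For KU-0063794 it was -1.40 (SE 0.64, adjusted p = 0.286; with the block SE 0.097, adjusted p = 0.000784, 95% interval -1.62 to -1.17), or 2.63-fold lower. A second Serpinb9 probe set lay above the background level on 1 of 9 arrays, the DMSO culture of spleen 1 at 2.01 log2. It too was lower in all 3 spleens with each inhibitor, without passing (adjusted p = 0.608 and 0.700 over all probe sets, 0.0774 and 0.144 with the block).

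Serpinb6b read 6.22, 3.21 and 5.21 log2 in the DMSO cultures of spleens 1, 2 and 3. With rapamycin it read 4.97, 2.61 and 3.89 log2, and with KU-0063794 4.94, 2.03 and 3.47 log2. Spleen 1 was the highest and spleen 2 the lowest in every group, as for Serpinb9, and each inhibitor culture lay below the DMSO culture of its own spleen, by 0.60 to 1.31 log2 with rapamycin and 1.18 to 1.74 log2 with KU-0063794. The log2 fold change was -1.05 for rapamycin (SE 0.91, adjusted p = 0.617 in limma; with the block SE 0.15, adjusted p = 0.00572, 95% interval -1.40 to -0.70). For KU-0063794 it was -1.40 (SE 0.91, adjusted p = 0.474; with the block SE 0.15, adjusted p = 0.00225, 95% interval -1.75 to -1.05). In bulk cultures fewer cells with a transcript and less transcript per cell cannot be told apart, and cross-hybridisation between the related serpin genes was not tested.

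With the fixed block, these 4 calls were kept when any 1 of the 9 arrays was left out; with the random block none of the 4 was made. With a whole spleen left out, the Serpinb9 call for rapamycin was lost without spleen 1 (adjusted p = 0.0558) and without spleen 3 (0.0604), as were the Serpinb6b calls for rapamycin (0.0878 and 0.0854) and for KU-0063794 (0.0550 and 0.0592). The Serpinb9 call for KU-0063794 was kept without each spleen, the adjusted p from limma reaching 0.0466.

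The 2 genes are neighbours on mouse chromosome 13, with no other protein-coding gene between them in the RefSeq annotation, inside a stretch that holds other clade B serpins. Serpinb9b, which did not pass, is likewise a direct neighbour of Serpinb9. Because Serpinb9 and Serpinb6b moved together, the 250 bases before their RefSeq transcript starts are shown, 5′ to 3′ on the plus strand of build GRCm38.p6, at chr13:33004291-33004540 for Serpinb9 and chr13:32965011-32965260 for Serpinb6b.
Serpinb9: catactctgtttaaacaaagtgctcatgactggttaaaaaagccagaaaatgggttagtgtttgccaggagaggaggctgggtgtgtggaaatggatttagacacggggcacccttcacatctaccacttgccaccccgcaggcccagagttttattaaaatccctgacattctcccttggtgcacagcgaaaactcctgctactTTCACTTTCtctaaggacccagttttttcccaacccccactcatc
Serpinb6b: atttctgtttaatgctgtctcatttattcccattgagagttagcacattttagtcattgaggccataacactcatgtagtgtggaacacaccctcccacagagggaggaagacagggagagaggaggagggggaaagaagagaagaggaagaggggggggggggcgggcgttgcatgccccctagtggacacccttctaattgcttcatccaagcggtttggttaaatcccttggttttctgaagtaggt
Capitals mark the only match, on either strand, to 6 motifs searched: the interferon regulatory factor core GAAANNGAA, chosen after the sequences had been read, AP-1 (TGANTCA), STAT (TTCNNNGAA), T-box (GGTGTGA), FOXO (GTAAACA) and RUNX (TGTGGT). The match begins 45 bases before the Serpinb9 start, on the minus strand. Of the 8 members with a promoter entry, 2 held this core, Serpinb9 and a gene other than Serpinb6b. The STAT and RUNX motifs were each held by 2 of the 8 as well, T-box by 1, and AP-1 and FOXO by 0. Of 32851 promoter windows of the same length, 7.13% held the interferon regulatory factor core, 6.75% AP-1, 7.02% STAT, 3.33% T-box, 3.17% FOXO and 14% RUNX. These are matches of letters and not measured sites.

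The starting level of both protector genes differed between spleens more than that of nearly all other genes. Among the DMSO cultures the SD was 1.06 log2 for Serpinb9 and 1.53 log2 for Serpinb6b, larger than for 99.7% and 99.9% of the 7908 genes above the background level, whose median SD was 0.14 log2. Stx11 (0.55 log2), Rab27a (0.49 log2) and Vamp7 (0.32 log2) also varied more than 90% of genes, whereas Stxbp2 (0.10 log2) and Srgn (0.070 log2) varied less than the median gene. The fit without a block counts this spread as error, and the block takes it out. Eomes, the 1 NK cell marker above the background level, had the same order of spleens, at 6.17, 3.71 and 5.22 log2 under DMSO, 6.62, 3.99 and 5.22 log2 under rapamycin and 6.23, 3.53 and 5.14 log2 under KU-0063794. The 3 NK cell markers summed to between 15.7 and 74.2 under DMSO, 18.2 and 100.5 under rapamycin, and 13.8 and 77.5 under KU-0063794. Eomes makes up most of each sum, so the sums do not show that NK cell markers as a group followed this order. The part of Eomes or of NK cells in the spread of the protector genes was not tested.

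Profiles over the 9 arrays were compared by the root mean square difference of gene-centred log2 values, as a description. Closest to Serpinb9 were Ptger3 (0.27 log2), a prostaglandin E receptor gene, Sult2b1 (0.28 log2), a sulfotransferase gene, and Tjp1 (0.32 log2), which encodes a junction protein. Closest to Serpinb6b were Ptger3 (0.35 log2), Serpinb9 (0.39 log2) and Tnfrsf9 (0.45 log2), which encodes the costimulatory receptor 4-1BB. Serpinb6b was in turn the 9th closest of 7907 genes to Serpinb9. Ptger3, Sult2b1, Tjp1 and Tnfrsf9 were picked for likeness over all 9 arrays, the DMSO arrays among them. Their differences between spleens in the DMSO cultures therefore follow from this choice and are no separate result. Ptger3 read 5.0, 2.70 and 4.25 log2, Sult2b1 6.01, 4.48 and 5.66 log2, Tjp1 2.99, 1.09 and 2.55 log2 and Tnfrsf9 7.44, 5.47 and 6.23 log2. Tjp1 lay below the background level in spleen 2 of every group and in spleen 3 of both inhibitor groups. It read 2.23, 0.45 and 1.46 log2 with rapamycin and 1.82, 0.93 and 1.31 log2 with KU-0063794.

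Other clade B serpins mostly had low signal. Of 15 annotated, 6 passed the filter on low signal and 3 lay above the background level. Serpinb1a, an inhibitor of neutrophil-type serine proteases and another gene of the chromosome 13 stretch, read 3.01, 1.84 and 2.96 log2 in DMSO and 1.40, 1.22 and 1.66 log2 in rapamycin cultures. It fell with rapamycin (log2 fold change -1.18, SE 0.27, adjusted p = 0.0442 in limma, 0.0107 with the block), to values around the background level. With KU-0063794 it read 1.71, 1.58 and 1.69 log2 and passed with the block (log2 fold change -0.94, adjusted p = 0.0971 without it and 0.0226 with it). Serpinb6a passed with the block as well, at -0.31 with rapamycin and -0.40 with KU-0063794 (limma adjusted p = 0.0328 and 0.0118, against 0.543 and 0.394 without it). In all, 1 of 6 was called lower with rapamycin and 0 of 6 with KU-0063794, against 4.44% and 4.07% of all genes tested called in either direction. With KU-0063794, 2 of 6 passed an unadjusted p under 0.05, against 18.5% of genes. With the block 2 of 6 were called lower in each comparison, against 5.52% and 5.86% of genes called lower. The others, Serpinb6e, Serpinb9b, Serpinb8 and Serpinb5, did not pass.

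The docking genes did not pass in either comparison, with or without the block. Rab27a, the GTPase on the granule surface, read 4.80, 4.47 and 5.44 log2 in DMSO, 4.88, 4.31 and 5.48 log2 in rapamycin and 4.54, 4.17 and 5.47 log2 in KU-0063794 cultures. Spleen 3 was highest and spleen 2 lowest in each group, and the groups overlapped. The log2 fold changes were -0.016 with rapamycin and -0.18 with KU-0063794 (limma adjusted p = 0.992 and 0.869), and with the block the 95% intervals ran from -0.23 to 0.19 and from -0.39 to 0.034. The other 3 Rab27a probe sets lay below the background level on all arrays, 1 of them too low to be tested. Unc13d, whose product Munc13-4 primes docked granules, read 4.27, 4.10 and 4.03 log2 in DMSO, 4.16, 4.05 and 4.13 log2 in rapamycin and 4.10, 4.10 and 3.93 log2 in KU-0063794 cultures. Its 9 values spanned little and overlapped between groups, and its 95% intervals with the block excluded a change beyond -0.20 or 0.16 log2 for rapamycin and beyond -0.27 or 0.085 log2 for KU-0063794.

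Of the 4 fusion genes none passed at the level of genes. All 4 had negative fold changes in each comparison, against 51.1% (rapamycin) and 46.8% (KU-0063794) of all genes tested. Vamp8 stood at only -0.013 with rapamycin, a sign that turned with some arrays or spleens left out. Stx11, the target-membrane SNARE of the granule, read 2.97, 1.91 and 2.21 log2 in DMSO, 2.40, 1.68 and 1.37 log2 in rapamycin and 2.19, 1.95 and 1.27 log2 in KU-0063794 cultures. Spleen 3 read under the background level in both inhibitor groups, so its differences there are bounds, and spleen 2 differed least from DMSO. The log2 fold changes were -0.55 and -0.57 (SE 0.34, limma adjusted p = 0.459 and 0.436; 0.0789 and 0.0699 with the block). With the block Stx11 passed for both inhibitors without the DMSO culture of spleen 2 (adjusted p = 0.0191 and 0.0168), without the KU-0063794 culture of spleen 2 (0.0316 and 0.0238) and without spleen 2 (0.0434 and 0.0311). It also passed with the block after quantile normalization (0.0439 and 0.0427) and with the trend and robust variance model (0.0317 and 0.0278). For KU-0063794 it passed with the block among genes above the background level too (0.0491). With its probe sets averaged it passed with the block (0.0420 and 0.0493), although the other probe set lay below the background level on all arrays.

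Stxbp2, which encodes the syntaxin 11 partner Munc18-2, was the only member whose groups did not overlap. Its brightest probe set read 4.66, 4.48 and 4.49 log2 in DMSO, 4.38, 4.28 and 4.28 log2 in rapamycin and 4.27, 4.37 and 4.26 log2 in KU-0063794 cultures. All 6 inhibitor values lay below all 3 DMSO values, as happened downward for 9.69% of genes tested with rapamycin and 9.29% with KU-0063794. The log2 fold changes were -0.23 and -0.24 (SE 0.081, limma adjusted p = 0.170 and 0.142, unadjusted p = 0.0194 and 0.0146; adjusted p = 0.0990 and 0.0797 with the block). The other 2 Stxbp2 probe sets, whose design allows binding to related sequences, were lower on average too. One of them changed by -0.47 and -0.41 log2 and passed with the block over all probe sets (limma adjusted p = 0.0278 and 0.0445, against 0.0585 and 0.0998 without it), and the other, at -0.17 and -0.25 log2, did not pass. With all 3 averaged, Stxbp2 passed with the block at -0.29 and -0.30 log2 (adjusted p = 0.0375 and 0.0333). For KU-0063794 its brightest probe set also passed with the block among genes above the background level (adjusted p = 0.0400).

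Of the vesicle SNARE genes, Vamp7 read 4.21, 3.60 and 3.76 log2 in DMSO, 3.89, 3.58 and 3.38 log2 in rapamycin and 3.71, 3.64 and 3.33 log2 in KU-0063794 cultures, with overlap between the groups. Its log2 fold changes were -0.24 and -0.30 (SE 0.18, limma adjusted p = 0.562 and 0.445; 0.218 and 0.127 with the block). With the block Vamp7 passed for both inhibitors without the DMSO culture of spleen 2 (adjusted p = 0.0476 and 0.0298), and for KU-0063794 with its probe sets averaged (0.0157). Its second probe set read 3.70, 3.03 and 3.02 log2 in DMSO, 3.32, 2.89 and 3.02 log2 in rapamycin and 3.02, 2.53 and 2.72 log2 in KU-0063794 cultures. The difference with KU-0063794, -0.49 log2, passed with the block (limma adjusted p = 0.283 without it, 0.0180 with it), and that with rapamycin, -0.17 log2, did not pass (0.764 and 0.331). Vamp8 read 5.84, 5.99 and 6.06 log2 in DMSO, 5.75, 5.99 and 6.11 log2 in rapamycin and 5.46, 5.90 and 5.76 log2 in KU-0063794 cultures. It stood at -0.013 with rapamycin and was lower with KU-0063794 in 3 of 3 spleens (log2 fold change -0.25, SE 0.13, limma adjusted p = 0.358, or 0.0842 with the block). With the block Vamp8 passed for KU-0063794 among genes above the background level (adjusted p = 0.0453) and with the trend and robust variance model (0.0136).

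Over probe sets, 18 of the 20 passed the filter on low signal. Without a block none was called in limma, against 2.61% (rapamycin) and 2.34% (KU-0063794) of 27022 probe sets. At an unadjusted p under 0.05, 2 and 3 of the 18 passed. The share of all probe sets at that rule was not computed, and among genes it was 17.9% and 18.5%. With the block 3 were called with rapamycin and 4 with KU-0063794, all lower, against 3.34% and 3.84% of all probe sets called lower and 7.77% and 7.81% called in either direction. They were the brightest probe sets of Serpinb9 and Serpinb6b and 1 of Stxbp2 in both comparisons, and the second one of Vamp7 with KU-0063794.

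**Figure D2:**
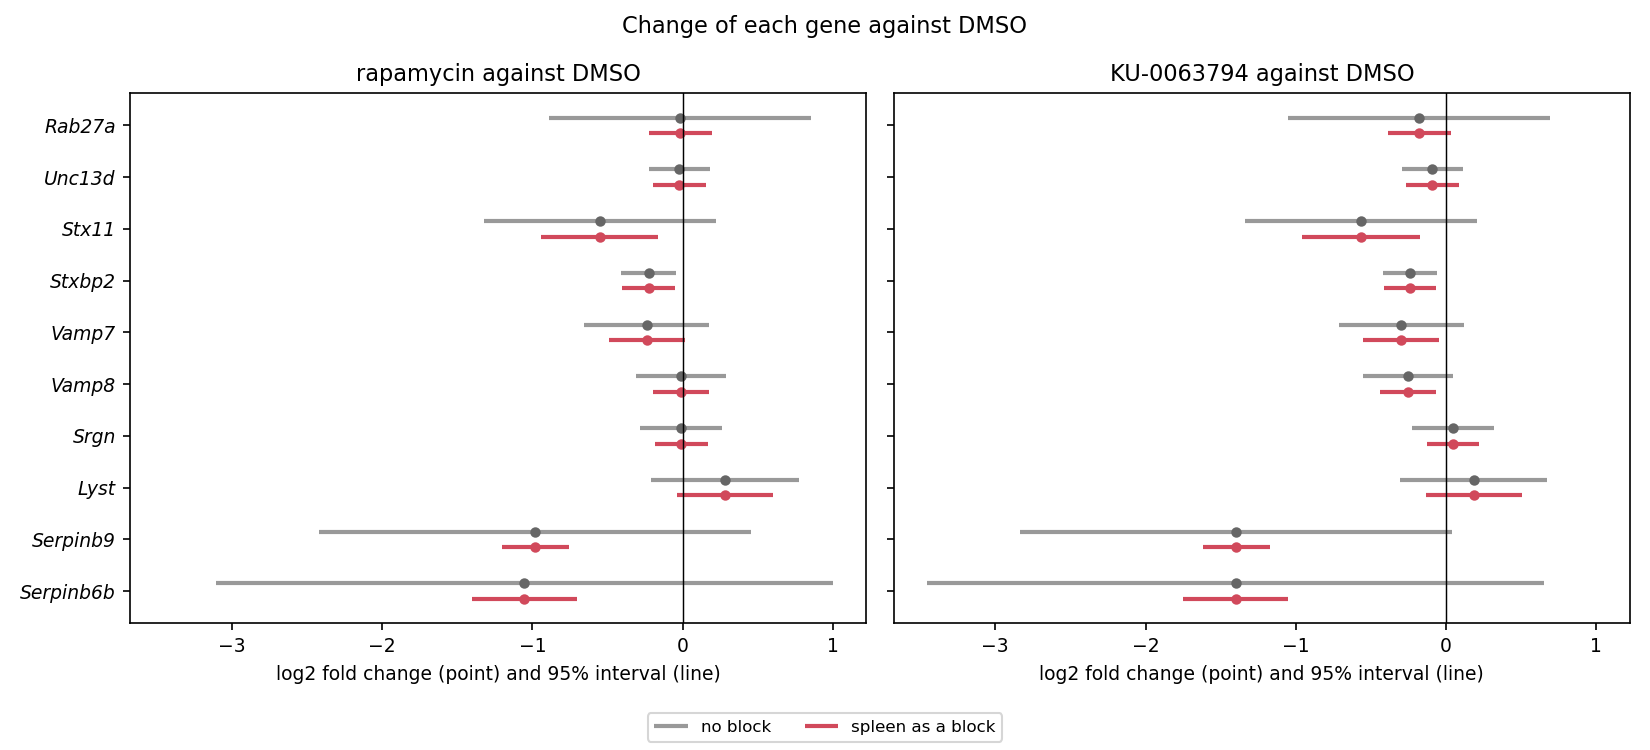
Log2 fold change of each gene against DMSO (points) with 95% intervals (lines), in grey without a block and in red with the spleen as a block, for rapamycin (left) and KU-0063794 (right). The blocked intervals of Serpinb9 and Serpinb6b lie wholly below -0.70 for rapamycin and below -1.05 for KU-0063794, and those of Rab27a, Unc13d, Srgn and Lyst include 0 in both panels.

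The genes of granule storage and size did not pass. Srgn, which encodes the core protein of the granule proteoglycan, read 9.84, 9.96 and 9.84 log2 in DMSO, 9.69, 10.05 and 9.88 log2 in rapamycin and 9.76, 10.14 and 9.89 log2 in KU-0063794 cultures. The groups overlapped and the log2 fold changes were -0.0093 and 0.046 (SE 0.12, limma adjusted p = 0.983 and 0.896), with 95% intervals with the block from -0.19 to 0.17 and from -0.13 to 0.22. The sign for rapamycin turned after quantile normalization (0.068 log2). Lyst read 3.27, 3.27 and 3.01 log2 in DMSO, 3.87, 3.26 and 3.27 log2 in rapamycin and 3.67, 3.53 and 2.91 log2 in KU-0063794 cultures. It had positive fold changes against DMSO with both inhibitors, 0.28 and 0.18 log2 (SE 0.22, limma adjusted p = 0.565 and 0.733; 0.249 and 0.459 with the block). The other 2 Lyst probe sets lay below the background level on all arrays, and 1 was too low to be tested.

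Around serglycin, enzymes that build its glycosaminoglycan chains were tested as a list of 23. None passed without the block. At an unadjusted p under 0.05, 4 passed with rapamycin and 3 with KU-0063794, against 17.9% and 18.5% of all genes tested. With the block 5.52% and 5.86% of all genes tested were called lower, and in this list the same 2 genes with each inhibitor. They were Chsy1, a chondroitin synthase gene, at -0.42 and -0.67 log2 (limma adjusted p = 0.00759 and 0.00170 with the block), and Papss1, which makes the sulfate donor, at -0.61 and -0.37 log2 (0.00759 and 0.0402). The list medians were 0.0085 and -0.094 log2.

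Among 37 partners of docking and fusion, 2 genes fell with both inhibitors without the block. They were Stxbp5, which encodes the syntaxin-binding protein tomosyn, and Stx8, which encodes an endosomal syntaxin. Stxbp5 read 4.21, 3.57 and 3.98 log2 in DMSO, 3.14, 2.92 and 2.95 log2 in rapamycin and 2.83, 2.93 and 2.88 log2 in KU-0063794 cultures, with no overlap (log2 fold changes -0.92 and -1.04, SE 0.15, limma adjusted p = 0.0130 and 0.0108). Stx8 changed by -0.38 and -0.54 log2 (SE 0.079, limma adjusted p = 0.0290 and 0.0114). With the block 7 of the 37 were called lower with rapamycin, 8 with KU-0063794 and none higher, against 5.52% and 5.86% of all genes tested called lower. Without it 4.44% and 4.07% of all genes tested were called in either direction. Stx7, an endosomal syntaxin gene, read 5.19, 4.49 and 4.53 log2 in DMSO and 4.59, 3.77 and 3.50 log2 in rapamycin cultures, and passed only with the block (-0.78 and -1.01 log2, limma adjusted p = 0.00377 and 0.00170, against 0.229 and 0.117 without it). Sytl2, which encodes a Rab27a effector that tethers granules, was in the same position (-0.54 and -0.71 log2, limma adjusted p = 0.00624 and 0.00237 with the block). The list medians were -0.055 and -0.028 log2.

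Of 29 genes for biogenesis of lysosome-related organelles, none passed with rapamycin and 2 with KU-0063794 without the block, against 4.44% and 4.07% of all genes tested. At an unadjusted p under 0.05, 8 and 9 passed, against 17.9% and 18.5% of all genes tested. Igf2r, which encodes the large mannose 6-phosphate receptor that sorts enzymes to lysosomes and granules, fell with KU-0063794 (-1.08 log2, SE 0.21, limma adjusted p = 0.0267). With rapamycin its log2 fold change was -0.51 (adjusted p = 0.252, or 0.0128 with the block). Gnptab, which encodes the enzyme that puts the mannose 6-phosphate tag on, rose with KU-0063794 (0.43 log2, SE 0.088, limma adjusted p = 0.0293). With the block 4 were called lower with rapamycin, and 5 lower and 1 higher with KU-0063794, M6pr (-0.33 and -0.32 log2) and Dtnbp1 (-0.42 and -0.40 log2) being lower in both. Of all genes tested, 5.52% and 5.86% were called lower with the block. None of 21 genes for granule transport, the synapse and calcium entry passed without the block. At an unadjusted p under 0.05, 3 and 4 passed, against the same 17.9% and 18.5%. With the block 3 and 2 were called lower, among them the calcium channel gene Orai1 (-0.55 and -0.54 log2, limma adjusted p = 0.0314 and 0.0340). Cdc42ep3, an effector gene of the GTPase Cdc42, passed too (-0.48 and -0.49 log2, 0.0418 and 0.0387), with a DMSO mean of 1.29 log2 that lies below the background level.

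Of 21 genes for granule cargo and membrane, 4 were called lower and 2 higher with rapamycin without the block, and 4 lower and none higher with KU-0063794. With the block 7 were called lower and 3 higher with rapamycin, and 8 lower and 2 higher with KU-0063794. Of all genes tested, 4.44% and 4.07% were called in either direction without the block, and 11.8% and 12.4% with it. The list medians were -0.12 and -0.058 log2. The 4 called lower without the block were the granzyme genes Gzmd, Gzme, Gzmf and Gzmg, close relatives whose cross-hybridisation was not tested. Gzmg read 7.40, 4.83 and 5.38 log2 in DMSO, 1.91, 0.83 and 0.63 log2 in rapamycin and 0.83, 0.40 and 0.54 log2 in KU-0063794 cultures (log2 fold changes -4.75 and -5.28, SE 0.58, limma adjusted p = 0.00649 and 0.00536). Only 1 of its 6 inhibitor values lay above the background level. Gzmd fell by 3.60 and 4.36 on the log2 scale (SE 0.73, limma adjusted p = 0.0275 and 0.0169).

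Other genes of this list were higher. Lamp1 and Lamp2, which encode lysosomal membrane glycoproteins, rose by 0.48 and 0.39 log2 with rapamycin (limma adjusted p = 0.0352 for both), and Ctsw, a cathepsin gene, passed with the block at 0.41 log2 (0.384 without it, 0.0132 with it). With KU-0063794 Lamp1 (0.35 log2) and Ctsw (0.30 log2) passed with the block (0.0437 and 0.0359). Prf1, the perforin gene, read 6.79, 4.88 and 4.81 log2 in DMSO, 5.47, 3.00 and 3.54 log2 in rapamycin and 4.77, 3.42 and 3.05 log2 in KU-0063794 cultures, and like the 2 protector genes it passed only with the block (limma adjusted p = 0.00393 and 0.00226). Gzmb, the granzyme that Serpinb9 inhibits, differed by -0.25 and -0.24 log2 near the top of the signal range (adjusted p = 0.127 and 0.139, or 0.0434 and 0.0482 with the block).

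**Figure D3:**
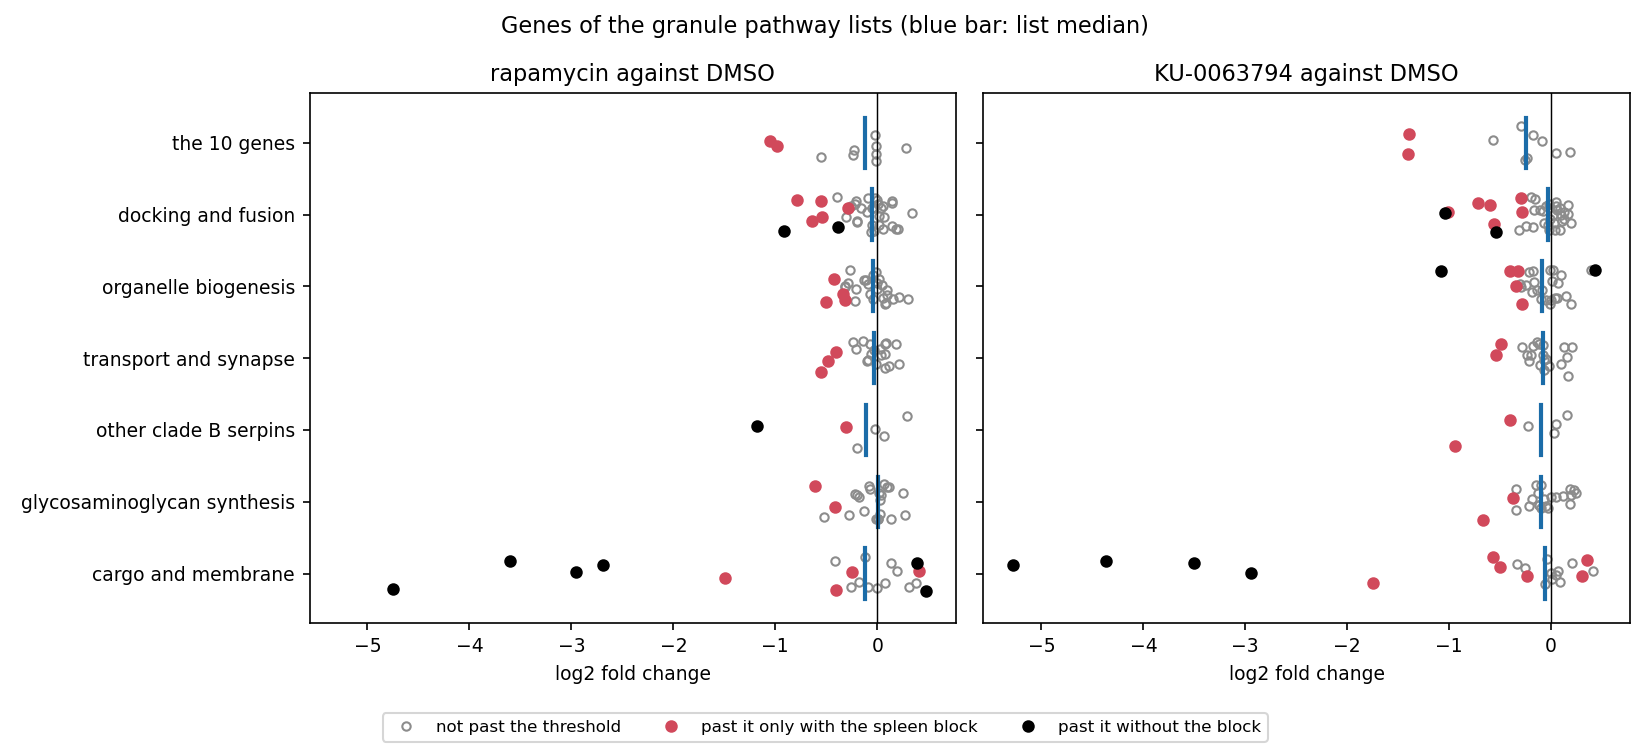
Log2 fold change (horizontal axis) of single genes of the 10-gene set and of 6 pathway lists, for rapamycin (left) and KU-0063794 (right); black points passed in limma without a block, red points only with the spleen block, and blue bars are list medians. Genes past the threshold lie left of 0 except Gnptab with KU-0063794 and, of the cargo and membrane list, Lamp1 and Ctsw in both panels and Lamp2 with rapamycin.

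KU-0063794 and rapamycin were compared directly at their single doses of 1 uM and 20 nM and the same time. No member was called in limma in this comparison, with or without the block, and neither was any of the 13278 genes (0% called); none of the 10 passed an unadjusted p under 0.05 without the block, against 4.74% of genes, and 2 did so with it, against 10% of genes. Those 2 were Serpinb9, lower with KU-0063794 by 0.63, 0.25 and 0.36 log2 in spleens 1, 2 and 3, and Vamp8, lower by 0.29, 0.08 and 0.35 log2. For Serpinb9 the difference was -0.41 log2, with a 95% interval from -0.64 to -0.19 with the block (limma adjusted p = 0.333) and from -1.85 to 1.02 without it. For Vamp8 it was -0.24 log2, with a 95% interval from -0.43 to -0.054 with the block (adjusted p = 0.417). Serpinb6b differed by -0.35 log2 (95% interval with the block -0.69 to 0.0017). For Unc13d, Stxbp2 and Srgn the blocked intervals left room for differences of at most 0.25 log2 in either direction, and for Stx11 of 0.40. The comparisons with DMSO share their 3 control cultures, so the likeness of their fold changes is not a result of its own.

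**Figure D4:**
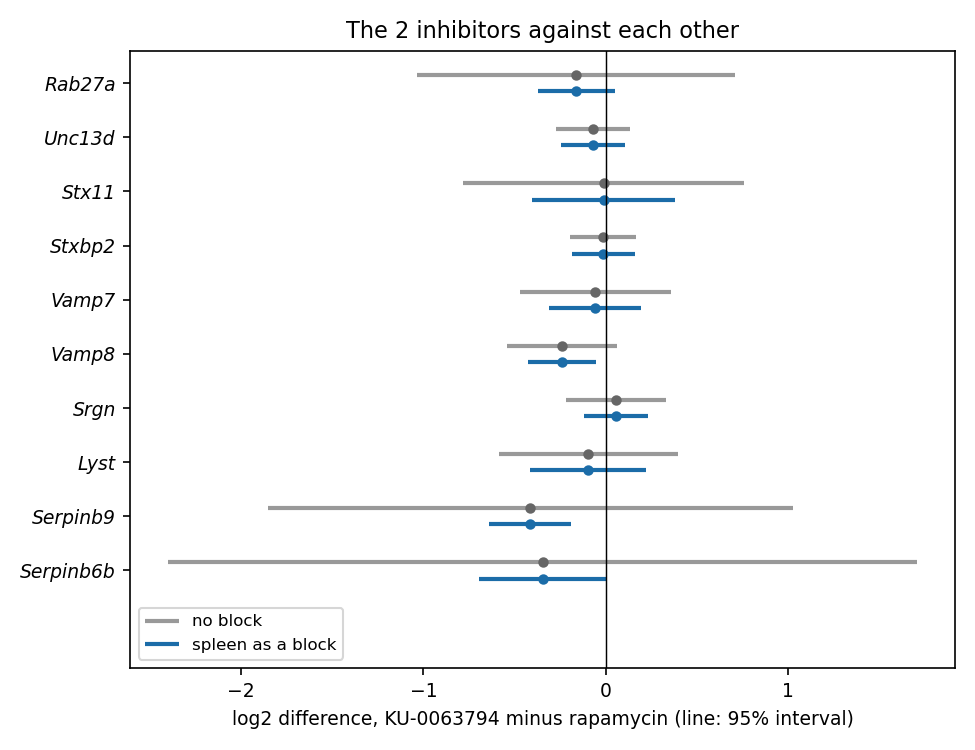
Log2 difference of KU-0063794 minus rapamycin for each gene (points) with 95% intervals (lines), in grey without a block and in blue with the spleen as a block. Only the blocked intervals of Serpinb9 and Vamp8 exclude 0, and neither gene passed after adjustment over all genes.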

How the data were processed

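Log2 signals of 9 arrays were deposited by the authors, who per the submitters' processing notes used Affymetrix Expression Console 1.3.1; the sources used here do not give the background correction and normalization. The values entered the fits unchanged, since array medians lay between 0.47 and 0.53 log2. Leaving out 64 controls, 34945 of 45037 probe sets had 1 gene symbol in the array annotation, 932 several and 9160 none; only the first kind was named. A gene was read from the probe set of highest mean signal and tested where that mean passed the 40th percentile of probe sets (0.31 log2). limma 3.58.1 in R 4.3.3 compared the 3 groups (lmFit, eBayes, two-sided, Benjamini-Hochberg over all genes or probe sets tested, threshold 0.05), after tests on simulated data. The main fit had no block. Per the labels, arrays of 1 number share a spleen, and deviations from group means correlated positively in all 9 same-numbered pairings (r 0.345 to 0.533). The 18 others were negative (r -0.414 to -0.0791), which follows in part from subtracting the group means and is no separate evidence. Values with the spleen as a block therefore stand beside results that they change. From each further list the text names up to 2 called genes per direction and comparison, again in the blocked fit, and for members called with the block the 3 closest profiles; Sytl2, M6pr, Prf1, Gzmb, Gzme, Gzmf, Eomes and the uncalled serpins were added after their values were seen. Members and lists were chosen with earlier results of these data known. Alternatives covered the block, normalization, filter, probe sets, variance model, array weights and arrays or spleens left out. The number of arrays limits the precision. Promoters are RefSeq's (GRCm38.p6), with entries for 8 of the 10 genes and none for Unc13d and Vamp7.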

Additional observations from a re-analysis of the deposited data

How the results depend on the processing

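Without the block, no setting that was planned called a member apart from the block itself, which called Serpinb9 and Serpinb6b: 2 genes for rapamycin and 2 for KU-0063794, and it changed no other member's call at the level of genes. The numbers of arrays and spleens limit what could be detected. With the spleen as a random replicate block neither gene was called. Member probe sets called were 3 (rapamycin) and 4 (KU-0063794) with the replicate block, 1 and 1 with the random replicate block, and for rapamycin 1 after quantile normalization and 1 with the filter at the background level. Pathway genes called, 9 and 8 without a block, were 28 and 30 with the replicate block, 19 and 20 with the random replicate block and 1 and 2 when only the groups compared were fitted. They ranged from 0 to 9 (rapamycin) and from 0 to 13 (KU-0063794) with an array or spleen left out, and both were 0 without spleen 2 and highest without its DMSO array; the cause was not tested.

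The remaining settings, added after the data were seen, kept the replicate block. Members called with rapamycin, 2 with the block alone, were 4 with probe sets averaged and 0 to 4 with arrays or spleens left out (0 without spleen 1 or 3, 4 without the DMSO array of spleen 2). With KU-0063794 they were 5 with the filter at the background level, 5 with probe sets averaged, 4 with the trend and robust variance model and 1 to 4 with arrays or spleens left out (1 without spleen 1 or 3, 4 without the DMSO array of spleen 2). The genes gained were Stx11, Stxbp2, Vamp7 and Vamp8, all lower. Between the inhibitors the trend and robust model called 1 member, Serpinb9 (limma adjusted p = 0.0474), and 4 pathway genes. Member probe sets called were 5 for rapamycin with that model, and 0 to 4 in each comparison with arrays or spleens left out (0 for rapamycin without spleen 1 or 3 and for KU-0063794 without spleen 3). Pathway genes called ranged from 0 (without spleen 3) to 26 with rapamycin and from 6 (without spleen 1) to 25 with KU-0063794. Shares of all genes called were computed only without a block and with the replicate block alone. Counts of members and pathway genes under the other settings therefore cannot be set against all genes.

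Signs turned only for fold changes past no threshold, in 46 of 660 values planned and 36 of 570 added, with no called value among them. Against rapamycin, KU-0063794 turned to 0.022 log2 (Lyst), 0.065 (Rab27a) and 0.015 (Stx11) with probe sets averaged, and to 0.0035 (Stx11) and 0.011 (Stxbp2) after quantile normalization. Against DMSO, Rab27a turned to 0.034 with KU-0063794 when probe sets were averaged and to 0.0035 with rapamycin under the block and array weights, and Srgn turned to 0.068 with rapamycin after quantile normalization. The block leaves these values as they are where it is not named. With arrays or spleens left out, values without and then with the block ran as follows for rapamycin against DMSO: Rab27a from -0.31 to 0.27 and from -0.084 to 0.056, Unc13d from -0.082 to 0.047 and from -0.086 to 0.025, Vamp8 from -0.093 to 0.084 and from -0.057 to 0.036, and Srgn from -0.097 to 0.083 and from -0.065 to 0.062. For KU-0063794 against DMSO, Srgn ran from -0.059 to 0.13 and from -0.019 to 0.11, and Rab27a without the block from -0.55 to 0.099. For KU-0063794 against rapamycin, Lyst ran from -0.28 to 0.13 and from -0.28 to 0.039, Stx11 from -0.23 to 0.28 and from -0.23 to 0.11, Stxbp2 from -0.066 to 0.035 and from -0.073 to 0.047, and Vamp7 from -0.18 to 0.078 and from -0.17 to 0.024. In the same comparison without the block, Rab27a ran from -0.53 to 0.13, Srgn from -0.050 to 0.14, Serpinb9 from -0.93 to 0.091 and Serpinb6b from -1.08 to 0.38.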
